A study of Mus musculus with 7 samples.

Results

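The WNT genes described here are 53 of the 56953 genes in the count files. They were chosen by name: all protein-coding mouse genes whose symbols begin with Wnt, Fzd, Dkk, Sfrp or Rspo and a digit, with Lrp5, Lrp6, Axin1, Axin2, Ctnnb1, Tcf7, Tcf7l1, Tcf7l2, Apc, Rnf43, Znrf3 and Nkd1. The rule uses names only, though it was drawn up with earlier results of these data known. RNA came from tumours of B16, a mouse melanoma line, taken 5 days after treatment, and from cells sorted as negative for CD45, a leukocyte surface protein, and CD31, an endothelial one. All 7 mice had radiotherapy (RT) at 8 Gy. The treated group of 3 also received AAV-iIL12, an adeno-associated virus named for interleukin 12, and the control group of 4 received AAV-iLuc. Neither the strain and age of the mice nor the promoters of the vectors are given in the sources used here, and the titles of the AAV-iIL12 libraries carry the letters WT without saying what they refer to. Every tumour was of this 1 line, so the results describe B16 and the other cells left in the sort. The comparison asks how AAV-iIL12 changed expression in irradiated tumours.

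WNT ligands are secreted lipid-bearing proteins that bind Frizzled receptors together with the co-receptors Lrp5 and Lrp6. In the canonical branch, binding halts a destruction complex built on Axin and Apc, so that beta-catenin (Ctnnb1) accumulates and acts with TCF factors in the nucleus. Dickkopf and secreted Frizzled-related proteins act outside the cell, mostly as antagonists, whereas R-spondins raise the signal by removing Znrf3 and Rnf43, which clear Frizzled from the surface. In the melanocyte lineage WNT signals act in the formation of melanocytes from neural crest, and Mitf, the lineage's main transcription factor, is a known target of beta-catenin.

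Each library held between 16356653 and 19080587 counts. All 12 genes of the melanocyte list had counts, and together they made up 25356 to 28895 CPM (counts relative to the library's size in the usual CPM unit, with sizes scaled by TMM, the trimmed mean of M-values) in AAV-iLuc and 31238 to 32112 CPM in AAV-iIL12. These sums did not overlap. Of the 12 genes 7 rose and 0 fell, or 58.3% and 0%, beside 23.5% and 23.7% of all tested genes. The part of the melanocyte share in the differences below was not tested. Fibroblast genes, a known source of WNT modulators, had counts for 15 of 15 and summed to 136 to 256 CPM in AAV-iIL12 and 147 to 398 CPM in AAV-iLuc, the highest being AAV-iLuc replicate 3. Pericyte and smooth muscle genes, 10 of 10 with counts, summed to 12.8 to 16.5 and 15.7 to 17.9 CPM. Leukocyte genes, 16 of 16 with counts, summed to 8.02 to 13.3 CPM in AAV-iIL12. They reached 16.9 CPM in AAV-iLuc replicate 1 and 2.44 to 4.64 CPM in the other AAV-iLuc libraries, so replicate 1 stood apart from its group. Of the 10 endothelial genes Cdh5, Tie1, Emcn and Cldn5 were at 0 in every library, and the list summed to 15.7 to 26.9 and 20.01 to 25.2 CPM. Of the 8 keratinocyte genes Krt5, Krt15, Krt1 and Trp63 were at 0, and the list stayed at or below 0.330 CPM. The 8 Schwann cell genes, several of which melanocytes share, summed to 1189 to 1281 and 1268 to 1319 CPM, with Gfra3 at 0. Of the 7 tested, 1 rose and 3 fell, or 14.3% and 42.9%, beside 23.5% and 23.7% of all tested genes. Genes of fat and muscle summed to at most 1.52 CPM, with Cfd and Myh4 at 0. In sorted bulk RNA fewer cells of a type and less RNA per cell cannot be told apart.

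Of the 53 WNT genes 26 had enough counts to be tested, 18 had counts too low for the test and 9 had no count in any library. Rspo3, Sfrp1, Dkk3, Axin2, Fzd5, Tcf7, Fzd7, Tcf7l2 and Axin1 rose in AAV-iIL12, and Fzd9, Fzd3, Fzd4, Tcf7l1, Znrf3 and Ctnnb1 fell (quasi-likelihood F test of edgeR, p adjusted by Benjamini-Hochberg over all tested genes, threshold 0.05). That made 9 rises, 6 falls and 11 genes not past the threshold. Calls were common in this comparison: 47.2% of all 13990 tested genes were called, 23.5% as higher and 23.7% as lower, against 57.7%, 34.6% and 23.1% of the tested WNT genes. The share of falls was near the background. Rises of at least 2-fold numbered 6, or 23.1%, and falls of that size 0, where 5.84% of all tested genes rose and 4.67% fell by that much. Of the 6, Tcf7 and Fzd5 were near the edge and fell short of 2-fold with library size only (log2 fold changes 0.911 and 0.982). The low-count filter also bears on these counts of 2-fold changes. Rspo3 and Sfrp1 passed it only through AAV-iIL12, where they were high. Sfrp2, low in AAV-iIL12, did not pass it and was a called fall without it (log2 fold change -2.71, edgeR adjusted p = 0.0140). The median log2 fold change was -0.04 over the 26 tested WNT genes and -0.01 over all tested genes, both close to 0. The libraries of the groups did not overlap for 19 of the 26, or 73.1%, beside 52.5% of all tested genes. These shares cover tested genes only, and 6 of them (Rspo3, Sfrp1, Sfrp4, Wnt5b, Wnt9a and Wnt11) reached 10 counts in 3 libraries of 1 group alone.

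**Figure D1:**
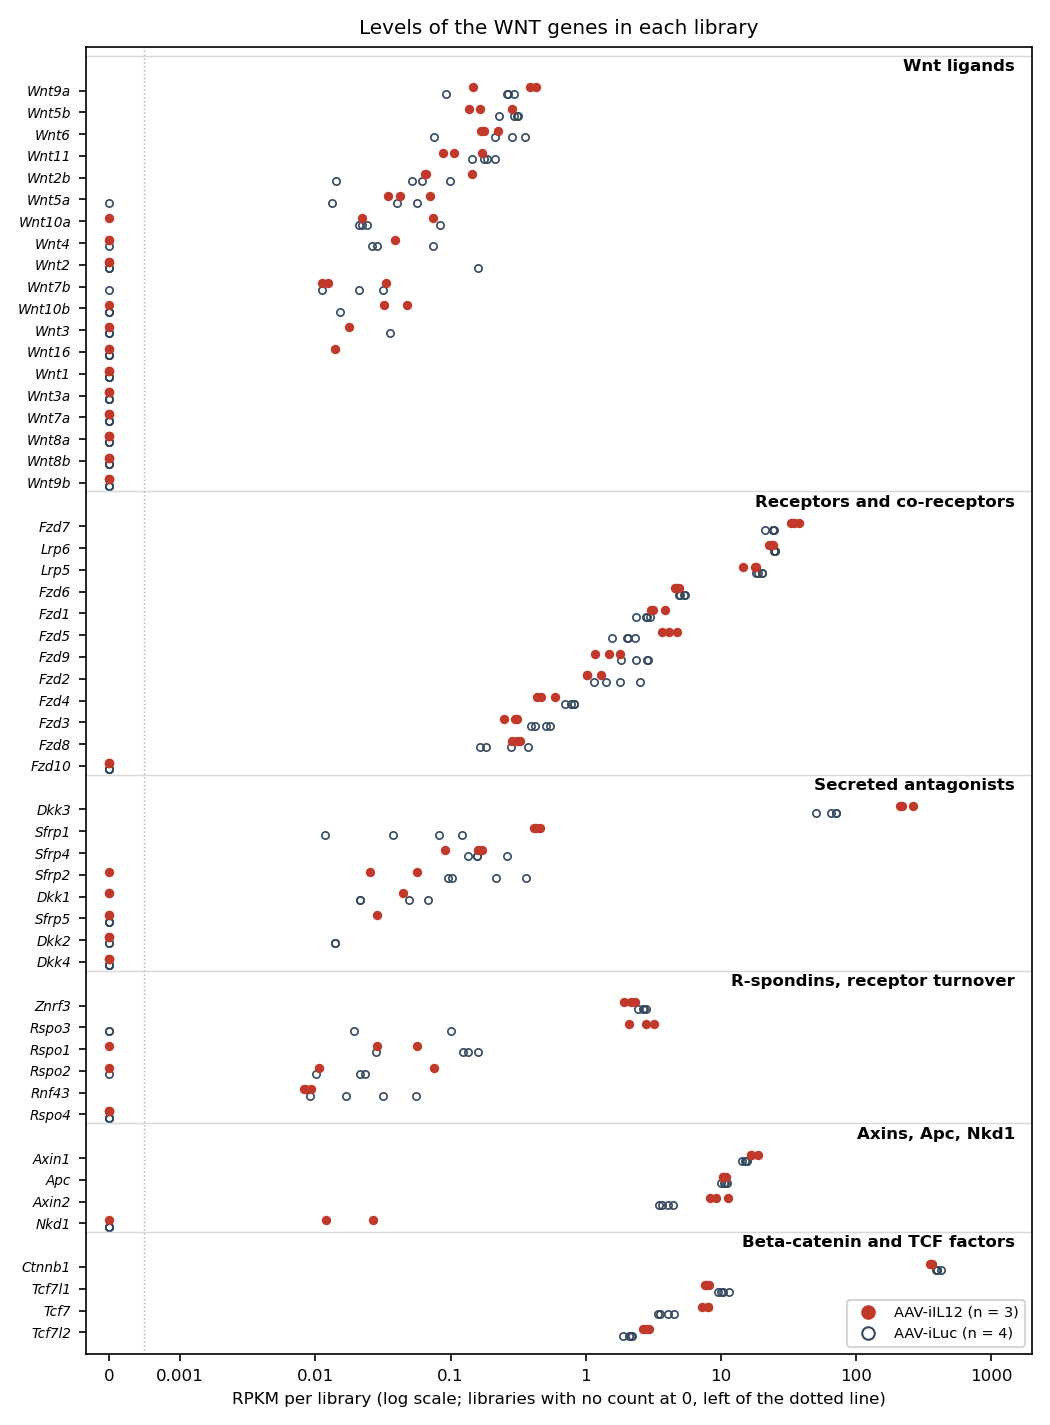
Levels of the 53 WNT genes as RPKM (CPM per kilobase of exon) in each library on a log axis, grouped by role and ordered by mean level, with libraries without a count drawn at 0. Filled points are the 3 AAV-iIL12 libraries and open points the 4 AAV-iLuc libraries. Ctnnb1 and Dkk3 had the highest levels, and the Wnt ligands lay below 1 RPKM in every library.

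Wnt ligands were barely expressed in either group. Of 19 ligand genes, Wnt1, Wnt3a, Wnt7a, Wnt8a, Wnt8b and Wnt9b had no count in any library, which over all libraries allows a level of up to 0.0237 CPM each, a bound for counting error only. The other 13 were detected, and all 19 together held 462 of 126807636 counts. Their summed level was 3.84, 3.58 and 3.46 CPM in the AAV-iIL12 libraries and 4.06, 3.51, 3.69 and 3.40 CPM in the AAV-iLuc libraries. The groups overlapped. Only Wnt9a, Wnt5b and Wnt11 had counts enough for the test, and none passed it.

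Wnt9a, which had the highest mean RPKM of the ligands, stood at 1.28, 0.489 and 1.43 CPM in AAV-iIL12 and at 0.988, 0.877, 0.893 and 0.309 CPM in AAV-iLuc. Its log2 fold change of 0.47 ± 0.45 (SE, edgeR adjusted p = 0.418) was about as large as its error. Wnt5b and Wnt11, ligands best known for signalling without beta-catenin, gave -0.53 ± 0.34 and -0.55 ± 0.33 (edgeR adjusted p = 0.229 and 0.202), also with overlapping groups. Among the untested ligands, summed counts in AAV-iIL12 and AAV-iLuc were 22 and 37 for Wnt6, 20 and 18 for Wnt2b, and 20 and 16 for Wnt5a, another ligand of the noncanonical branch. Wnt4 had 3 and 10, Wnt10a 4 and 7, Wnt7b 5 and 6, Wnt10b 5 and 1, Wnt3 1 and 2 and Wnt16 1 and 0. All 6 counts of Wnt2 were in AAV-iLuc replicate 3, the library with the highest fibroblast sum. At this depth a small or moderate difference in these genes was not detectable. Genes that ligands need for release were measured at higher levels. Wls, the carrier of lipid-bearing Wnt proteins to the cell surface, rose from 249 ± 22.6 to 332 ± 2.11 CPM (SD, n = 4 and n = 3, edgeR adjusted p = 0.00109), while Porcn, the enzyme that attaches the lipid, stood at 5.65 ± 1.21 and 6.66 ± 1.20 CPM and did not pass (edgeR adjusted p = 0.335).

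Frizzled receptors changed in both directions. Of 10 Frizzled genes 9 were tested: Fzd7 and Fzd5 rose, Fzd9, Fzd3 and Fzd4 fell, and Fzd1, Fzd2, Fzd6 and Fzd8 did not pass. These are 22.2% and 33.3% of the 9, where 23.5% of all tested genes rose and 23.7% fell, so the counts alone do not set the family apart. Fzd10 had no count. Fzd7 (ENSMUSG00000041075, chromosome 1, 59521583 to 59526114, GRCm39) stood at 171, 157 and 150 CPM in AAV-iIL12 and at 110, 95.8, 112 and 110 CPM in AAV-iLuc. Every AAV-iIL12 library was above every AAV-iLuc library. The log2 fold change was 0.58 ± 0.07 (SE, edgeR adjusted p = 1.02e-04), or 1.49-fold. Fzd5 (ENSMUSG00000045005, chromosome 1, 64769717 to 64776910) lay at 32.8, 25.5 and 28.4 CPM against 14.2, 14.0, 16.02 and 10.8 CPM. Again the groups were apart, by 2.10-fold (log2 fold change 1.07 ± 0.13, edgeR adjusted p = 1.16e-04).

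The Frizzled genes that fell were all below 10 CPM. Fzd9 was at 4.14, 3.42 and 2.69 CPM in AAV-iIL12 and at 5.41, 6.58, 6.55 and 4.18 CPM in AAV-iLuc, a log2 fold change of -0.73 ± 0.21 (edgeR adjusted p = 0.0158). Its highest AAV-iIL12 value nearly met the lowest AAV-iLuc value, and without AAV-iIL12 replicate 3 the call ended (edgeR adjusted p = 0.0720). Fzd3, a receptor known from planar cell polarity and axon guidance, was at 3.17, 3.97 and 3.85 CPM against 6.5, 5.43, 6.91 and 5.00 CPM (-0.70 ± 0.16, edgeR adjusted p = 0.00596). Fzd4, which also serves as the receptor of norrin, was at 2.92, 3.97 and 3.13 CPM against 5.51, 4.72, 5.48 and 5.26 CPM (-0.65 ± 0.16, edgeR adjusted p = 0.0065). In both genes the groups were apart.

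Of the rest, Fzd1 had a log2 fold change of 0.28 ± 0.12 (edgeR adjusted p = 0.0767), Fzd6 of -0.13 ± 0.07 (0.151), Fzd8 of 0.30 ± 0.30 (0.448) and Fzd2 of -0.63 ± 0.25 (0.0667). The Fzd2 groups overlapped, since AAV-iLuc ran from 4.22 to 9.18 CPM and AAV-iIL12 from 3.72 to 4.73 CPM. Compared per length, summed Frizzled RPKM was 54.9, 49.6 and 48.7 in AAV-iIL12 and 39.1, 37.0, 41.2 and 39.3 in AAV-iLuc. Fzd7 held 67.9% to 69.8% of that sum in AAV-iIL12 and 57.2% to 61.9% in AAV-iLuc. The share of Fzd5 was 7.42% to 8.63% against 3.96% to 5.62%, and that of Fzd9 2.41% to 3.29% against 4.63% to 7.76%.

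The co-receptors differed little. Lrp6, the more abundant per length, stood at 311, 328 and 332 CPM in AAV-iIL12 and at 341, 339, 340 and 343 CPM in AAV-iLuc. Its libraries did not overlap between groups, but the difference was small and did not pass (log2 fold change -0.07 ± 0.05, edgeR adjusted p = 0.267). Lrp5 stood at 142, 175 and 177 CPM against 182, 197, 178 and 197 CPM (-0.20 ± 0.08, edgeR adjusted p = 0.0751). With library size as the only scaling, Lrp5, Lrp6, Fzd2 and Fzd6 passed as lower, which gave 10 falls among the WNT genes, and the count was also 10 with upper quartile scaling. Those scalings called 31.9% and 30.2% of all genes as lower, with 2506 rises and 4460 falls in the first and 2650 and 4225 in the second, where TMM gave 3292 and 3316.

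**Figure D2:**
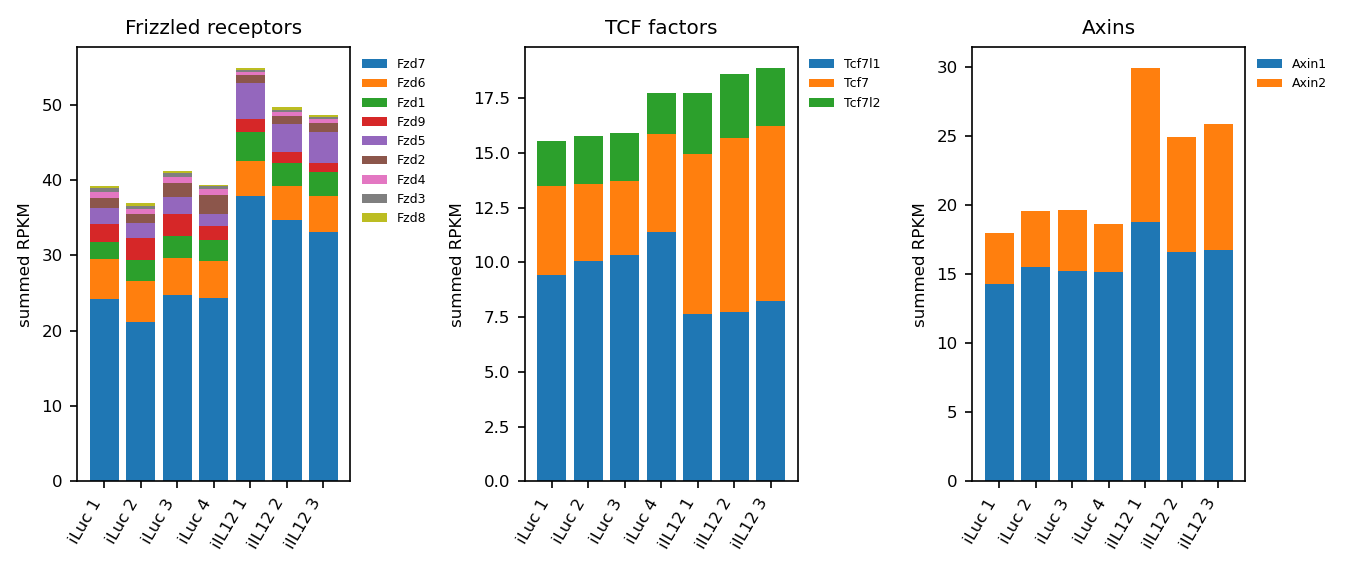
Summed RPKM of the Frizzled receptors, the TCF factors and the axins in each library, stacked by gene, with AAV-iLuc libraries on the left and AAV-iIL12 libraries on the right. Fzd7 was the largest part of the Frizzled sum in all 7 libraries, and the Tcf7 and Axin2 parts were larger in each AAV-iIL12 library than in any AAV-iLuc library.

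Dkk3 was the second most abundant WNT gene per length and rose 3.59-fold. It encodes a divergent Dickkopf protein that, unlike Dkk1, is not a general inhibitor of Lrp5 and Lrp6. Dkk3 (ENSMUSG00000030772, chromosome 7, 111715224 to 111758264) stood at 884, 729 and 712 CPM in AAV-iIL12 and at 237, 240, 217 and 169 CPM in AAV-iLuc. The lowest AAV-iIL12 library was far above the highest AAV-iLuc library. The log2 fold change was 1.85 ± 0.12 (SE, edgeR adjusted p = 3.86e-06), and it ran from 1.74 to 1.91 over the alternatives. Dkk3 alone held 99.0% to 99.8% of the summed RPKM of the 8 Dickkopf and Sfrp genes in every library. Fibroblasts are a known source of Dkk3. Their list summed to 136 to 256 CPM in AAV-iIL12 and 147 to 398 CPM in AAV-iLuc, and 1 of its 14 tested genes rose and 0 fell, that is 7.14% higher beside 23.5% of all tested genes. The part of fibroblasts in the Dkk3 rise was not tested.

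Sfrp1, a secreted Frizzled-related protein that binds Wnt ligands, rose from a much lower level. Sfrp1 (ENSMUSG00000031548, chromosome 8, 23901518 to 23939648) was at 1.89, 2.01 and 1.81 CPM in AAV-iIL12 and at 0.0520, 0.165, 0.536 and 0.361 CPM in AAV-iLuc. These were 31, 37 and 33 counts against 1, 3, 9 and 7. The groups were apart although all levels were low, with a log2 fold change of 2.77 ± 0.44 (edgeR adjusted p = 5.89e-04). Sfrp2 pointed the other way, with 2, 1 and 0 counts in AAV-iIL12 and 4, 4, 13 and 9 in AAV-iLuc. That is a ratio of 0.139 with an exact 95% binomial interval of 0.0271 to 0.447 for counting error, and Sfrp2 passed as lower without a low-count filter (edgeR adjusted p = 0.0140) and in DESeq2 (adjusted p = 0.0378). Its highest values were in AAV-iLuc replicates 3 and 4. The part of fibroblasts in it was not tested, and their list was highest in AAV-iLuc replicate 3. Sfrp4 did not pass, at 0.588 ± 0.181 against 0.743 ± 0.236 CPM (edgeR adjusted p = 0.468). Dkk1, an inhibitor of Lrp5 and Lrp6, had 2 counts in AAV-iIL12 and 7 in AAV-iLuc, Dkk2 0 and 2, Sfrp5 1 and 0, and Dkk4 none.

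**Figure D3:**
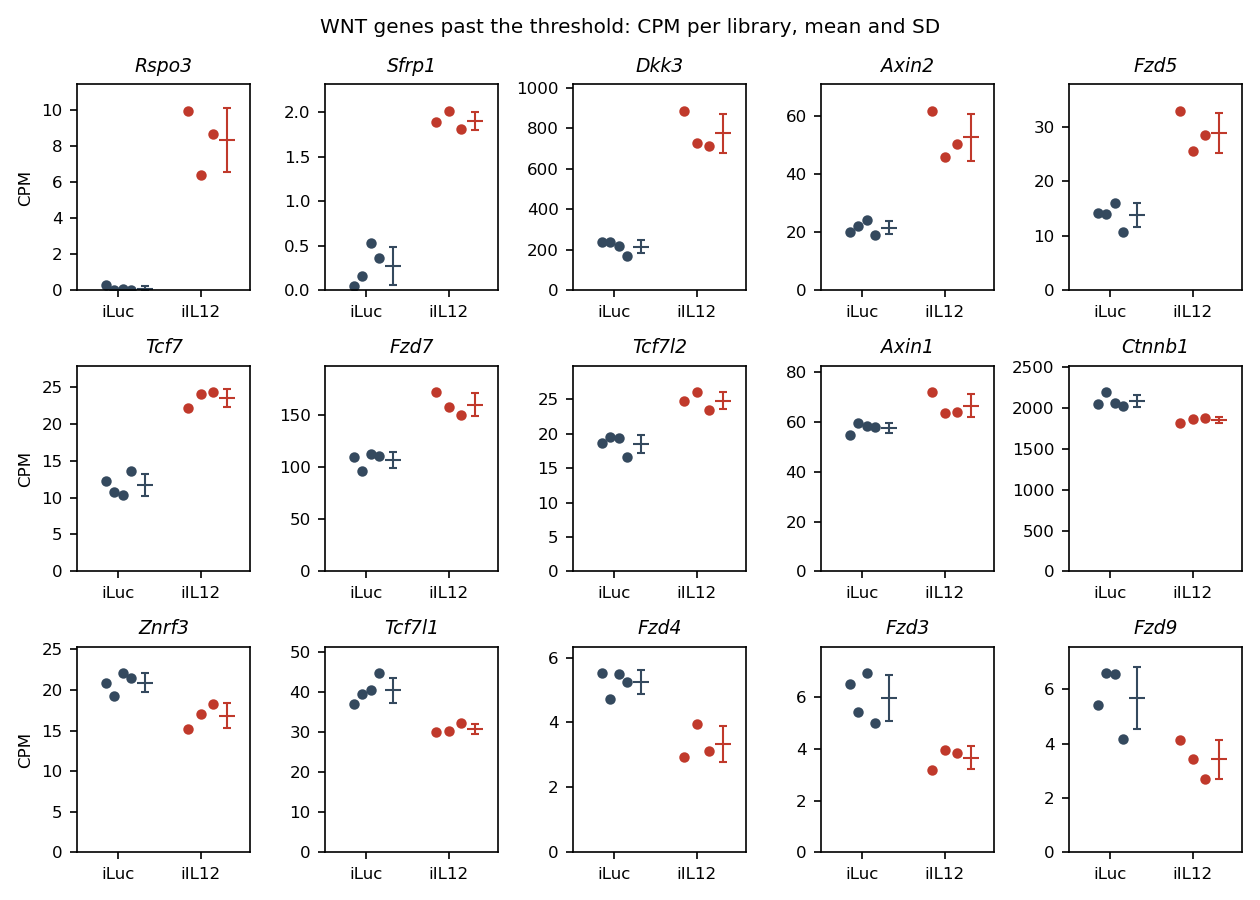
CPM of the 15 WNT genes past the threshold in each library, with AAV-iLuc (n = 4) on the left of each panel and AAV-iIL12 (n = 3) on the right. The bar beside the points is the mean with its SD, and each axis starts at 0. In all 15 panels the groups are apart, by most in Rspo3 and by least in Fzd9.

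Rspo3 had the largest difference of all the WNT genes. It encodes R-spondin 3, which binds Lgr receptors and Znrf3 or Rnf43. Rspo3 (ENSMUSG00000019880, chromosome 10, 29328412 to 29411863) had 163, 118 and 158 counts in AAV-iIL12 and 6, 0, 1 and 0 in AAV-iLuc. In CPM these were 9.93, 6.41 and 8.68 against 0.312, 0, 0.0596 and 0. Expression was thus present in all 3 treated libraries and at or near 0 in the controls, where 6 of the 7 counts were in replicate 1. The log2 fold change was 6.35 ± 0.48 (SE, edgeR adjusted p = 7.30e-06). Pooled counts gave a ratio of 87.1 (exact 95% binomial interval 41.9 to 218, for counting error only). Without AAV-iLuc replicate 1 the control group was left with 1 count, and the ratio was 451 (80.5 to 17840). Fibroblast, pericyte, endothelial and leukocyte sums overlapped between the groups. The leukocyte sum was 8.02 to 13.3 CPM in AAV-iIL12, 16.9 CPM in AAV-iLuc replicate 1, the control library with most Rspo3 counts, and 2.44 to 4.64 CPM in the other controls. The part of these cells in the Rspo3 counts was not tested.

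The other R-spondin genes had few counts. Rspo1 had 3 counts in AAV-iIL12 and 16 in AAV-iLuc, Rspo2 8 and 5, and Rspo4 none. The pooled Rspo1 ratio was 0.261 (exact 95% binomial interval 0.0486 to 0.910, for counting error only). Its groups overlapped in CPM, and its counts were too low for the test. Among the R-spondin receptors, Lgr6 fell from 4.40 ± 0.41 to 0.304 ± 0.053 CPM (log2 fold change -3.83 ± 0.24, edgeR adjusted p = 2.89e-06). Its values were 0.366, 0.272 and 0.275 CPM in AAV-iIL12 and 4.11, 4.28, 5.00 and 4.23 CPM in AAV-iLuc. The groups were far apart, but Lgr6 passed the low-count filter only through AAV-iLuc, where it was high. Lgr4, the abundant receptor, rose from 42.4 ± 1.63 to 52.1 ± 3.17 CPM (0.30 ± 0.06, edgeR adjusted p = 0.00291). Lgr5, a stem cell marker, averaged 0.414 ± 0.119 CPM with AAV-iIL12 and 0.689 ± 0.356 CPM without it and was not called (edgeR adjusted p = 0.231).

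Znrf3, the ligase that removes Frizzled from the surface and that R-spondins block, was at 15.2, 17.0 and 18.2 CPM in AAV-iIL12 and at 20.9, 19.3, 22.0 and 21.4 CPM in AAV-iLuc. It was lower in each treated library, by a log2 fold change of -0.31 ± 0.09 (edgeR adjusted p = 0.0147). That call ended without AAV-iIL12 replicate 1 (edgeR adjusted p = 0.0544). Rnf43, the related ligase, had 3 counts in AAV-iIL12 and 14 in AAV-iLuc.

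Axin2, the gene most often used to read out beta-catenin activity because it is induced as negative feedback, rose 2.45-fold. Axin2 (ENSMUSG00000000142, chromosome 11, 108811175 to 108841609) stood at 61.7, 46.0 and 50.5 CPM in AAV-iIL12 and at 20.3, 22.4, 24.2 and 19.2 CPM in AAV-iLuc. Its groups were well apart (log2 fold change 1.29 ± 0.11, edgeR adjusted p = 1.43e-05). Per length, Axin1, the constitutive scaffold, was the most abundant of Axin1, Axin2, Apc and Nkd1. It was at 71.8, 63.6 and 64.1 CPM against 54.7, 59.5, 58.3 and 58.0 CPM. Its rise was small (0.21 ± 0.06, edgeR adjusted p = 0.0172). The Axin1 call ended without AAV-iIL12 replicate 1 (edgeR adjusted p = 0.0556), with the replicate block (0.0691), with library size only (0.134) and with upper quartile scaling (0.0891). Axin2 made up 33.4% to 37.4% of the summed axin RPKM in AAV-iIL12 and 18.7% to 22.4% in AAV-iLuc.

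Apc, the large scaffold that holds beta-catenin for degradation, was at 168, 167 and 177 CPM in AAV-iIL12 and at 173, 178, 171 and 162 CPM in AAV-iLuc, with overlapping groups, and was not called (edgeR adjusted p = 0.980). Its log2 fold change of -0.0020 ± 0.05 changed sign under other settings. Nkd1, a feedback inhibitor that acts on Dishevelled, had 2, 1 and 0 counts in AAV-iIL12 and 0 in AAV-iLuc, which is too few to compare.

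Ctnnb1 was the most abundant WNT gene and fell slightly. Ctnnb1 (ENSMUSG00000006932, chromosome 9, 120758282 to 120789573) was at 1818, 1867 and 1884 CPM in AAV-iIL12 and at 2052, 2193, 2064 and 2028 CPM in AAV-iLuc. Each treated library was below each control library, with a log2 fold change of -0.17 ± 0.05 (edgeR adjusted p = 0.0135), or 1.12-fold lower. The call ended without AAV-iLuc replicate 1 (edgeR adjusted p = 0.0604). RNA counts do not measure beta-catenin protein, whose level is set mainly by degradation.

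The TCF factors, which carry beta-catenin to DNA, moved apart from each other. Tcf7 (ENSMUSG00000000782, chromosome 11, 52143198 to 52174158), which encodes TCF1, stood at 22.1, 24.1 and 24.2 CPM in AAV-iIL12 and at 12.2, 10.7, 10.3 and 13.6 CPM in AAV-iLuc. It rose 2.004-fold with no overlap (log2 fold change 1.003 ± 0.10, edgeR adjusted p = 4.14e-05). T cells use Tcf7 heavily. Summed counts of the T cell genes in AAV-iIL12 and AAV-iLuc were 4 and 0 for Cd3e, 5 and 2 for Cd3d and 4 and 0 for Trac, and those of Tcf7 were 1246 and 865. The part of T cells in the Tcf7 rise was not tested. Tcf7l2 was at 24.8, 26.0 and 23.5 CPM against 18.6, 19.5, 19.4 and 16.7 CPM, and rose (0.42 ± 0.08, edgeR adjusted p = 0.00182). Tcf7l1, a member known mostly as a repressor, was at 30.0, 30.3 and 32.3 CPM against 37.0, 39.4, 40.5 and 44.6 CPM, and fell (-0.39 ± 0.08, edgeR adjusted p = 0.00193). Lef1, the remaining gene of the TCF family, had 3 counts in all libraries together.

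Per length, the mix of TCF transcripts differed between the groups. Tcf7 held 41.2% to 42.8% of the summed RPKM of these 3 factors in AAV-iIL12 and 21.5% to 25.9% in AAV-iLuc. The share of Tcf7l1 was 41.5% to 43.5% against 60.6% to 64.9%, and that of Tcf7l2 was 14.0% to 15.7% against 10.6% to 13.9%. Their sum overlapped little, at 17.7 to 18.9 RPKM in AAV-iIL12 and 15.6 to 17.7 RPKM in AAV-iLuc.

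**Figure D4:**
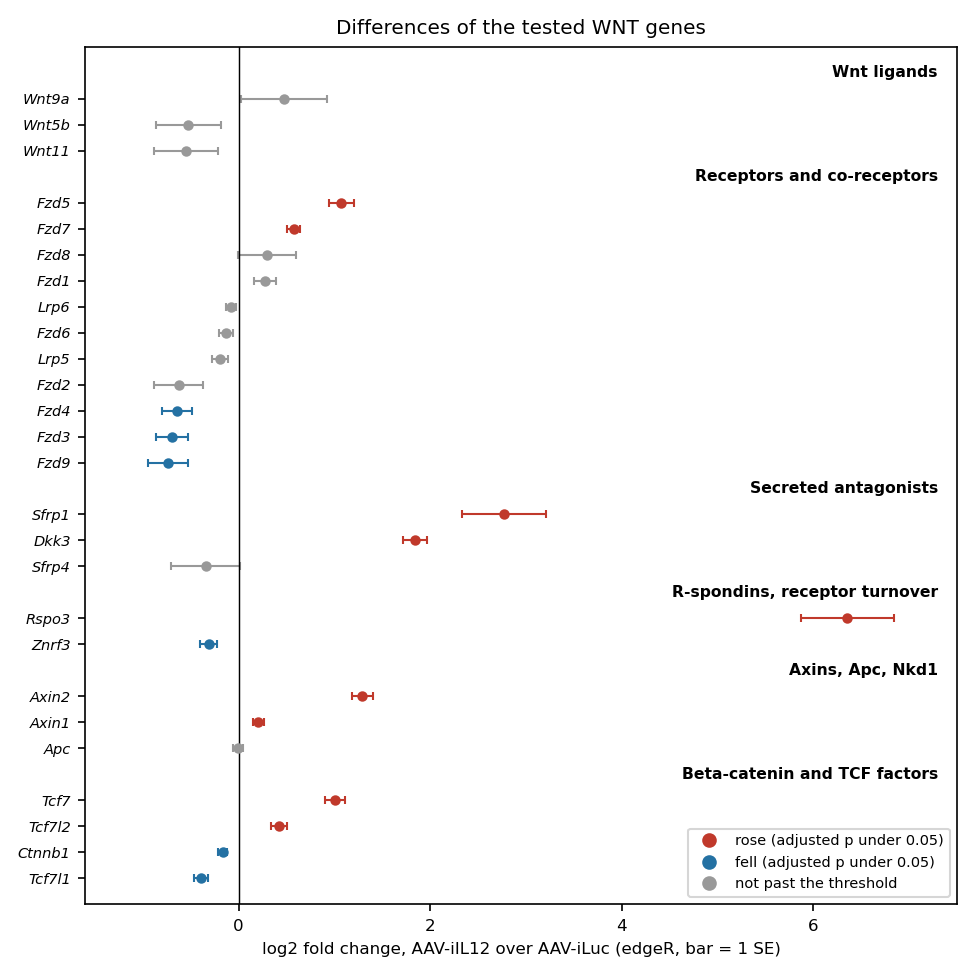
Log2 fold change of AAV-iIL12 over AAV-iLuc for the 26 tested WNT genes by role, with 1 SE as the bar. Red marks the 9 rises, blue the 6 falls and grey the 11 genes not past the threshold. Rspo3 at 6.35 lies far beyond the others, and the ligands are all grey.

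Promoter windows in the RefSeq table (GRCm38.p6) were found for 34 of the 53 WNT genes, of which 13 were tested. Rspo3, Dkk3, Sfrp1 and Axin1 were not among them. Shown are the 250 bases before a start of Axin2, Ctnnb1 and Tcf7l2, genes of the canonical branch that rose, fell and rose. The windows shown overlap no annotated exon. Ctnnb1 and Tcf7l2 each have another window that is not shown, and that of Ctnnb1 overlaps its own exon. The windows shown lie at chr11:108920099-108920348, chr9:120933150-120933399 and chr19:55741560-55741809, all on the plus strand. CpG pairs, the sites of DNA methylation, are in capitals.
Axin2: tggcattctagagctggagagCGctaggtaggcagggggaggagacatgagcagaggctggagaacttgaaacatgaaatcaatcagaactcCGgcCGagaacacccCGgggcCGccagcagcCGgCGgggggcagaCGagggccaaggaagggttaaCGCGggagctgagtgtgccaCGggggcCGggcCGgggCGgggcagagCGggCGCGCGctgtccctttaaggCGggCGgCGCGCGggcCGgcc
Ctnnb1: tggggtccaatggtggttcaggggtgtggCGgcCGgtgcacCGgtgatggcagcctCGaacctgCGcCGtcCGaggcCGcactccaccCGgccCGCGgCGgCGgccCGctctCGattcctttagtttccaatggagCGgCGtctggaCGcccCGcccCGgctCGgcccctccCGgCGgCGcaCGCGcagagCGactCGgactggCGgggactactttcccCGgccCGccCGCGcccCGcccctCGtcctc
Tcf7l2: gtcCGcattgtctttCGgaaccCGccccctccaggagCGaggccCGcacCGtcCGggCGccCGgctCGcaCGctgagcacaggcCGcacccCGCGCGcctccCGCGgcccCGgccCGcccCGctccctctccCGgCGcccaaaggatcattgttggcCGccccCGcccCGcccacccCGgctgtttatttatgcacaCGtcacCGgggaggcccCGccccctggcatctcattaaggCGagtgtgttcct

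These windows held 24, 35 and 30 CpG pairs, and those not shown held 43 for Ctnnb1 and 7 for Tcf7l2. The median was 22 in the 41 windows of WNT genes and 6 in all 32851 windows of the table, a description of these windows only. Motifs were searched on both strands of the same 250 bases. The interferon gamma site GAS, written TTCNNNGAA, was in 0 of 7 windows of the WNT genes that rose, in 1 of all 41 and in 7.02% of all windows. The interferon response element ISRE, written as GAAA, 2 bases of any kind and GAAA again, was in 0 of 41 and in 2.98% of all windows. The TCF site CTTTGAT was in 2 of 41, those of Wnt11 and Wnt5b, and in 3.21% of all windows. None of the 7 windows of risen genes, which belong to 5 of the 9 genes that rose, held any of these motifs. A missing match says only that these letters are not in these windows.

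Other genes of the pathway changed in both directions and about as often. Of 143 genes on 5 lists, 107 were tested, of which 33 rose, 31 fell and 43 did not pass. That is 59.8% called, where 47.2% of all tested genes were, and their median log2 fold change was -0.04. Some of the falls, such as those of Lgr6 and Nkd2, were of genes that passed the low-count filter only through AAV-iLuc. Among 9 tested genes of ligand secretion and extracellular control 2 rose, Wls and Tinagl1, and 2 fell, 22.2% each way and near the share of all genes. Tinagl1, a secreted matrix protein and the most abundant of the list, rose from 408 ± 53.3 to 654 ± 30.5 CPM, and Igfbp4, an insulin-like growth factor binding protein, fell from 171 ± 13.6 to 112 ± 8.65 CPM (edgeR adjusted p = 2.85e-04 and 1.36e-04). Alternative receptors and planar polarity genes showed 6 rises and 11 falls among 21 tested, with a median of -0.45. These are 28.6% and 52.4%, beside 23.5% and 23.7% of all tested genes. Daam1, a formin that links Dishevelled to actin, rose from 96.0 ± 6.32 to 181 ± 11.4 CPM, and Prickle1, a core polarity protein and the most abundant of its list, fell from 123 ± 15.9 to 66.7 ± 1.24 CPM (edgeR adjusted p = 5.51e-06 and 4.47e-05).

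In the cytoplasmic relay 11 of 33 tested genes rose and 7 fell, or 33.3% and 21.2%, beside 23.5% and 23.7% of all tested genes. Btrc, the ubiquitin ligase subunit that recognises phosphorylated beta-catenin, rose from 37.8 ± 2.36 to 50.4 ± 1.77 CPM (edgeR adjusted p = 5.48e-04), and Dvl1, a Dishevelled protein, from 54.0 ± 1.43 to 64.8 ± 1.86 CPM (0.00176). Dact3, an antagonist that binds Dishevelled, fell from 15.3 ± 0.53 to 9.96 ± 0.12 CPM (edgeR adjusted p = 1.76e-04). The most abundant, the phosphatase subunit Ppp2r1a, averaged 333 ± 7.52 CPM with AAV-iIL12 and 344 ± 14.6 CPM without it, not past the threshold (edgeR adjusted p = 0.525).

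Among 26 tested nuclear partners of beta-catenin 7 rose and 7 fell, 26.9% each way, which is near the 23.5% and 23.7% of all tested genes. Sox9, a transcription factor also active in melanocytes, rose 3.496-fold from 10.01 ± 1.64 to 35.0 ± 2.83 CPM (log2 fold change 1.81 ± 0.12, edgeR adjusted p = 3.95e-06). Bcl9, a co-activator that binds beta-catenin, rose from 26.3 ± 1.24 to 50.6 ± 3.85 CPM (edgeR adjusted p = 7.08e-06), and Tle4, a Groucho co-repressor of TCF factors, from 21.2 ± 1.28 to 37.1 ± 1.69 CPM (1.68e-05). Aes, a short Groucho-related protein and the most abundant of the list, fell from 259 ± 11.4 to 224 ± 7.40 CPM (edgeR adjusted p = 0.0136).

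Of 20 tested genes often listed as beta-catenin targets, 7 rose, 5 fell and 8 did not pass, with a median of -0.16. These are 35.0% and 25.0%, beside 23.5% and 23.7% of all tested genes. Jun rose from 300.5 ± 31.7 to 615 ± 40.2 CPM and Dusp6, a phosphatase of ERK kinases, from 187 ± 26.2 to 342 ± 21.0 CPM (edgeR adjusted p = 1.15e-05 and 8.20e-05). Birc5, which acts in cell division, fell from 57.9 ± 11.1 to 15.9 ± 2.40 CPM (edgeR adjusted p = 1.53e-05), and Met, the most abundant of the list, from 2266 ± 121 to 1842 ± 246 CPM (0.0158). Mitf rose from 1029 ± 63.3 to 1225 ± 27.1 CPM (0.25 ± 0.06, edgeR adjusted p = 0.00573). Nkd2, a feedback inhibitor like Nkd1 that stands on both the relay and the target list, was at 0.305, 0.380 and 0.440 CPM in AAV-iIL12 and at 0.988, 0.932, 1.43 and 0.876 CPM in AAV-iLuc. It fell, opposite to Axin2, at low levels (-1.46 ± 0.33, edgeR adjusted p = 0.0045). Nkd2 passed the low-count filter only through AAV-iLuc, where it was higher. Sp5 and Notum, other targets used beside Axin2 in several tissues, had 0 and 2 counts in all libraries. Many of the listed genes answer to other pathways too.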

How the data were processed

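Poly(A) RNA of 7 libraries was sequenced with a strand-keeping kit, per the labels' protocols. The deposited values are raw fragment counts per gene, made by the authors with featureCounts 1.6.0 over exons of GENCODE vM32, reverse-stranded and paired, per the file headers. STAR 2.7.9a, FastQC 0.11.8, limma, edgeR and the GRCm39 build are also named in the submitters' processing notes. No option for reads mapping to several places stands in the headers, so near-identical copies may be undercounted.

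Symbols came from a reference list of gene names by identifier (52029 of 56953 matched, 99.4% of counts). Gene types came from GENCODE vM21 by identifier. At 16356653 to 19080587 counts per library, the rare WNT genes were too shallow to test. The comparison used edgeR 4.0.16 under R 4.3.3 (quasi-likelihood F test, TMM, filterByExpr, Benjamini-Hochberg over 13990 genes). The edgeR function was also run on simulated counts with far fewer changed genes than were called here. That run does not bear on the choice of scaling. SEs of log2 fold changes were derived from the F statistic. CPM and RPKM use TMM-scaled library sizes. Libraries were taken as mice, as the design text counts them, with n = 3 and n = 4. No library repeated another of its group (chi-square per degree of freedom at least 3.49 for every pair).

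Genes named: every called WNT gene above 1 CPM in a group and the most abundant of each role, and from each pathway list the 3 with the smallest p and the most abundant. Lgr4, Lgr5, Lef1, Porcn, Mitf, Nkd2, Sp5, Notum, the T cell genes and the WNT genes with few counts were chosen for their link to a WNT gene, some after their values were seen. The members and lists were chosen with earlier results of these data known. The alternatives tried were DESeq2 1.42.0, limma-voom (limma 3.58.1), edgeR with DESeq2 size factors, with upper quartile scaling or with library size only, no filter, 1 CPM in 3 libraries, the replicate number as a block, and each library left out.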

Additional observations from a re-analysis of the deposited data

Results flagged for a closer look

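In 4 of 38 WNT genes looked at in the group of 4, 1 AAV-iLuc library stood far from the other libraries of its group. Chance alone would flag about 1 group in 20 for continuous values. That rate does not hold for genes with few counts, such as Wnt2 and Wnt10a, so no excess is read from these flags. Wnt2 was at 0.357 CPM in AAV-iLuc replicate 3, all 6 of its counts, and at 0 in the other libraries of its group. Wnt10a was at 0.206 CPM in AAV-iLuc replicate 4 and at 0.0520 to 0.0596 CPM in the others, which is 4 counts against 1 in each other library. Wnt9a was at 0.309 CPM in AAV-iLuc replicate 4, below the 0.877 to 0.988 CPM of the others. Fzd7 was at 95.8 CPM in AAV-iLuc replicate 2 against 110 to 112 CPM in the others, a spread smaller than its difference between groups. No cause of these values was tested.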

How the results depend on the processing

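Over 15 alternatives, 7 of which left out 1 library, Axin2, Dkk3, Fzd3, Fzd4, Fzd5, Fzd7, Rspo3, Sfrp1, Tcf7, Tcf7l1 and Tcf7l2 kept direction and call, 11 of the 15 called WNT genes. Leaving out 1 library gave 8 to 9 rises and 5 to 7 falls among the WNT genes. The falls numbered 10 with library size only and 10 with upper quartile scaling, under which the median of all genes was -0.10 and -0.08 on the log2 scale. Apc, not called under any alternative, changed sign, its log2 fold change being 0.0055 with DESeq2 size factors in edgeR, 0.0020 without a low-count filter, 0.0007 with 1 CPM in 3 libraries, 0.0054 in DESeq2, and -0.0268 to 0.0166 with 1 library left out. The main Apc estimate was -0.0020 ± 0.0530 (SE), so its sign was not resolved, and no cause was tested. With the replicate block 8 WNT genes rose and 6 fell, the call lost being Axin1. The replicate numbers are not stated to pair the libraries, and same-numbered libraries deviated from their group means with correlations of 0.0876, 0.0337 and -0.0485. Depth limits the 27 untested WNT genes, none with more than 13 counts in a library.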
